A study of Mus musculus with 123 samples.

Results

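Broad open chromatin peaks are stretches of at least 1500 bp that the transposase of ATAC-seq could reach in mouse cerebral cortex. They were taken by width alone (end minus start plus 1) from a single list of peaks shared by all libraries, and 2788 of 130727 peaks qualified. The study asked how sleep loss and time of day act on the cortex: male C57BL/6J mice, 11-12 weeks old and housed in a 12:12 h light-dark cycle, were sleep-deprived through gentle handling over the first 6 h of the light phase (zeitgeber time ZT0 to ZT6), and ATAC-seq and RNA-seq were made from the same animals. Undisturbed controls were sampled at ZT0 (8 animals with ATAC-seq), ZT3 (3), ZT6 (5), ZT12 (5) and ZT18 (4). Sleep-deprived mice were sampled at T27 and T30, after 3 h and 6 h of deprivation on a clock that starts 24 h before it, and then during recovery at T36, T42, T48, T54, T60, T66, T72, T78, T192 and T198, with 3 animals each except T66, which has 1 ATAC library; T192 and T198 are 7 days after the deprivation. The labels give 2 batches: ZT3, T27, T30, T36, T42, T48, T54, T72 and T78 are all in batch 1, T60, T66, T192 and T198 all in batch 2, and the other controls in both. The tissue was whole cortex, a mixture of cell types: all 8 listed markers of excitatory neurons and all 11 of inhibitory neurons were present in the RNA table, as were those of glia, and Ttr, a choroid plexus marker, ranged from 0.41 to 7.54 log2 units among libraries. In such bulk tissue, fewer cells of a type and less accessibility per cell cannot be told apart.

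Open chromatin marks DNA that is free of, or poor in, nucleosomes. Promoters of widely used genes often lie in CpG islands, where CpG dinucleotides are dense and a long stretch is accessible, while enhancers tend to be narrower and to differ more between cell types and states. Neuronal activity opens many enhancers through factors of the AP-1 family, and the molecular clock acts through E-boxes, the letters CACGTG, to which the CLOCK and BMAL1 proteins bind.

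The starts of 4 genes are shown first, because the results turn on them: a clock gene whose broad peak fell with sleep loss, a gene whose broad peak and mRNA both fell, an immediate-early gene whose broad peak was not called while its mRNA rose, and a heat-shock gene that shares its start region with another. Each window runs from 250 bases before to 50 bases after the gene start in RefSeq on GRCm38.p6, the build of the peaks, and reads 5′ to 3′ on the gene's strand. The Ciart window is chr3:95882179-95882478 on the minus strand, within the peak chr3:95881808-95883363, with every CACGTG in capitals. The other windows have every CG in capitals: Klhdc9 at chr1:171360749-171361048 (minus strand), Fos at chr12:85473640-85473939 (plus strand) and Hspe1 at chr1:55087898-55088197 (plus strand).
Ciart: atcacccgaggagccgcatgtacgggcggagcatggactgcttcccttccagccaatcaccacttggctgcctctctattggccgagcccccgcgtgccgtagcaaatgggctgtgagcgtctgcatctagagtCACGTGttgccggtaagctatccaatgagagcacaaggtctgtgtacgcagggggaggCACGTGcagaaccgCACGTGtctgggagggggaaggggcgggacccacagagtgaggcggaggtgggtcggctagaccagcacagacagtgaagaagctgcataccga
Klhdc9: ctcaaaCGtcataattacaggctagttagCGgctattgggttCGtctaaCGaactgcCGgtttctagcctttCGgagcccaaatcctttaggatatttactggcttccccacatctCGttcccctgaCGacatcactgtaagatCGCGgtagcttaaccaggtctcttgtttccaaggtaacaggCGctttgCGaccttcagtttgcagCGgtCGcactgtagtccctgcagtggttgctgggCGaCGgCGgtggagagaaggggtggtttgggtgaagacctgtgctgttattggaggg
Fos: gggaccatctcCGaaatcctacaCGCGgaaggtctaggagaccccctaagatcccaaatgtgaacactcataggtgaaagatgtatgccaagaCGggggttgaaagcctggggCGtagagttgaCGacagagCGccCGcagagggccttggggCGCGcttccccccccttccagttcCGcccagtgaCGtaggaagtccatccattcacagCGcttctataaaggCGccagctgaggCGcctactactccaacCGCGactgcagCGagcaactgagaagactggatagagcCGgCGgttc
Hspe1: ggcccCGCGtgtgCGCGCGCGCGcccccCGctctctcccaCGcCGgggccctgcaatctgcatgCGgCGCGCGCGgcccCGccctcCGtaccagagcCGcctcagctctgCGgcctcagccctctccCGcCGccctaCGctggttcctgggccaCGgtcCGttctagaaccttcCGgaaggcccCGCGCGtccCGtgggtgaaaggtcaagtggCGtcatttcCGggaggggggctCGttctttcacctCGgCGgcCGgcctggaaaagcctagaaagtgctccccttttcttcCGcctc

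The Ciart window holds 3 E-boxes, which begin at positions -116, -58 and -44 from the gene start. At least 3 E-boxes were found in 7 of 2294 windows lying wholly in broad peaks (0.305%) and in 29 of all 32851 windows (0.0883%). The Klhdc9 window holds 17 CpGs and none of the motifs searched. The Fos window holds 20 CpGs, and the Hspe1 window holds 36 CpGs at an observed over expected ratio of 0.98.

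Broad peaks lay mostly at gene starts. A RefSeq gene start fell inside 1659 of them (59.5%), against 10247 of 127939 narrower peaks (8.01%), and 368 broad peaks held the starts of 2 or more genes (13.2%, against 1.03%). A further 383 lay within a gene away from any start (13.7%, against 52.1%), 572 lay between genes (20.5%, against 32.9%), 58 had a start within 1 kb, and 116 were not annotated here. The table of starts is not complete, so the share at starts is a lower limit. Broad peaks were also strong: 2407 of 2788 (86.3%) were in the top 10% of all peaks by mean signal, and their median signal per kb was 15.4 against 8.89 for narrower peaks, in the authors' depth-scaled units. Those holding a start had a median signal of 31.1 and those without one 21.6. Width and signal are linked by how peaks are called, so these levels are a description.

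Within broad peaks, the promoter windows were rich in CpG. Of windows lying wholly in a broad peak the median GC share was 65.7%, against 61.3% in narrower peaks and 47.3% in no peak, and the median CpG observed over expected ratio was 0.82, 0.76 and 0.20. GGGCGG, the letters of an Sp site, was found on either strand in 74.0% of broad-peak windows, 64.4% of narrower-peak windows and 35.7% of all windows. The AP-1 letters TGANTCA were found in 3.18%, 4.81% and 7.81%, the cyclic AMP response element TGACGTCA in 2.83%, 3.63% and 1.79%, and the E-box in 10.5%, 10.4% and 7.15%. Both strands were searched for each motif. A motif match is a description of letters in the window and not a binding site.

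Genes that start in a broad peak were nearly always detected as mRNA. Of 1737 protein-coding genes with such a start, 1667 (96.0%) were in the RNA table, against 88.8% of those starting in a narrower peak and 15.9% of those starting in no peak. A broad peak lay at the start of 6 of 17 clock genes with a known start (Arntl, Clock, Nr1d2, Tef, Nfil3 and Ciart) and of 4 of 23 immediate-early genes (Fos, Jun, Bdnf and Homer1), against 9.93% of all protein-coding genes. These shares are not on a like base. Of the 17491 protein-coding genes 6906 started in no peak, but 0 of the 17 clock genes and 1 of the 23 immediate-early genes did. A broad peak also lay at 2 of 6 housekeeping and 2 of 10 chaperone genes. It lay at none of 13 neuronal transcription factor genes and at 8 of 135 developmental transcription factor genes (5.93%). None of the listed markers of neurons, glia, vessels, choroid plexus or meninges with a known start had one: each of those starts lay in a narrower peak or in no peak.

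The widest peak, chr17:39843122-39847100 (3979 bp), lay 51.3 kb from the start of AY036118 and had a mean signal of 1443, from 875 to 2467 over libraries, far above any other broad peak per kb. The next widest were 3419 bp at the starts of LOC108167694 and 4930526I15Rik, 3116 bp near Spaca6, 3026 bp near Gm52481 on chromosome Y, 2892 bp at the start of 2410080I02Rik, 2807 bp within Grin2a, which encodes an NMDA receptor subunit, 2779 bp near 3830417A13Rik on the X chromosome, and 2702 bp at the starts of Ell2 and 1700037F03Rik. None of the 8 was called at T30. The highest signal per kb after the widest peak was 140.4 at 4932412D23Rik. Then came 115.9 for a peak 556 kb from the start of Gm30438 and 115.7 for a peak on chromosome 18. The next was 113.3 for a peak 1349.5 kb from the start of Gm42257. Because the table of starts is not complete, a nearer start may be missing. The lowest signals per kb were 4.55 within Gsdmcl-ps, 4.76 within Abr, 4.78 near Ndufs5, 4.83 within Cemip and 4.94 within Mtmr7. At the limit of width, 10 peaks measured exactly 1500 bp and 15 were 1 bp narrower. The Pkd1 and Stt3a starts and the peak within Ash2l, just inside, had mean signals of 46.5, 102.5 and 24.2, and the Herpud2 and Actr1b peaks just outside had 42.9 and 37.8.

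**Figure D1:**
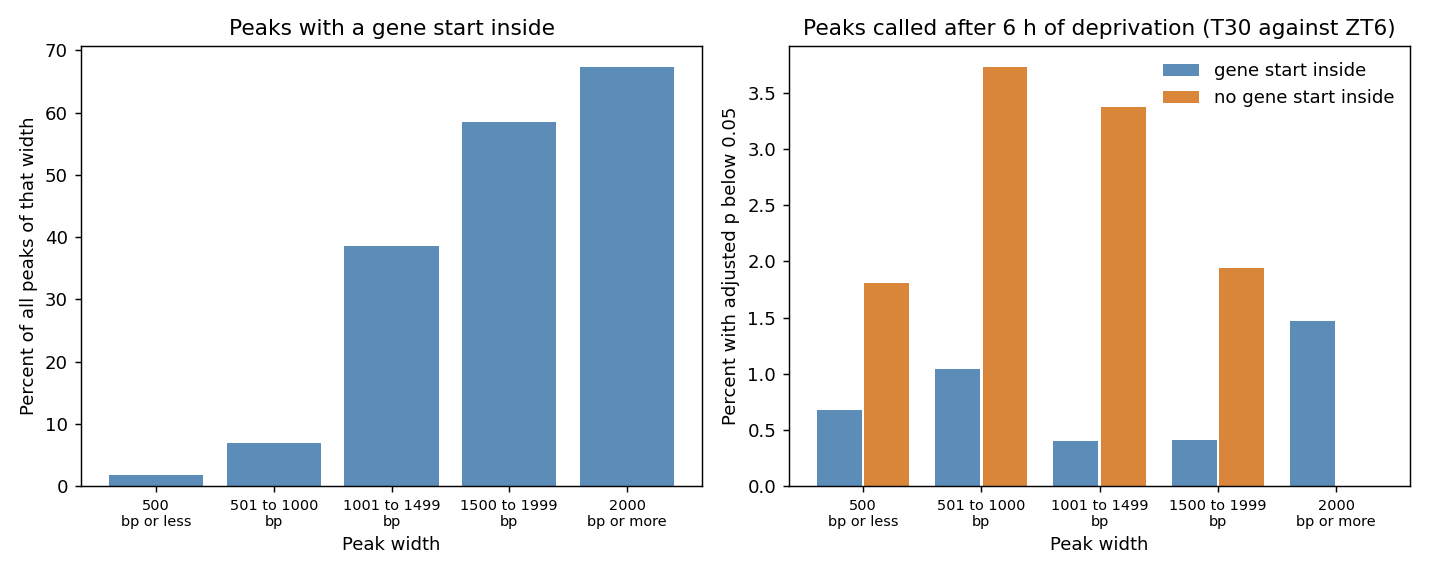
Left, the percent of peaks in each width class that hold a RefSeq gene start. Right, the percent of peaks called after 6 h of deprivation (limma, adjusted p below 0.05), split by whether a start lies inside; among peaks without a start the percent is highest in the second class (3.73) and is 1.94 and 0 in the 2 broad classes, and among peaks with a start it is 0.412 and 1.47 in those classes.

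Few broad peaks were called after 6 h of sleep deprivation. With limma on log2(signal + 0.5) and p-values adjusted by Benjamini-Hochberg over all 130727 peaks, 28 of 2788 broad peaks (1%) were called at T30, 17 higher and 11 lower than in ZT6 controls. The background was 2.6% of all peaks, 2.18% higher and 0.427% lower. The 9 called peaks that hold a gene start were mostly lower (7 lower, 2 higher), while the 18 annotated peaks without a start were mostly higher (14 higher, 4 lower). Called narrower peaks with a start were 34 higher and 36 lower, and those without one were 2657 higher and 497 lower. So the rises without a start are no trait of broad peaks. The median T30 change over all broad peaks was -0.10 with a start and -0.04 without, and over narrower peaks -0.10 and -0.01. Per class, 0.542% of the broad peaks with a start and 1.78% of those without were called, against 0.683% and 2.8% of the narrower peaks. In the top 10% by signal the figures were 0.526% and 1.9% for broad peaks and 0.404% and 5.44% for narrower ones. The standard error of the change was smaller in broad peaks (median 0.15 against 0.26 over all peaks), as was the spread of the changes themselves (SD 0.18 against 0.36).

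Fewer calls were made at the other times. At T27, 1 broad peak was called, a rise (background 0.689%, of which 0.658% higher and 0.0314% lower), and at T36 1 was called, a fall (background 0.618%, 0.261% higher and 0.357% lower). In the other 9 deprived groups limma called no broad peak, and edgeR on the reads recovered from the signal steps called none either. At an unadjusted p below 0.05 (limma) those groups had between 49 and 311 broad peaks, where 139.4 make up 5%. The 49 were at T42 (1.76%, against 4.23% of all peaks) and the 311 at T198 (11.2%, against 6.67%). At T48 the share was also above that of all peaks (6.17% against 5.43%). In the other groups with 3 animals it was below. Over all peaks the only call in these 9 groups was at T48, where 0.00153% were called.

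The strongest riser was a peak 84.9 kb from the start of Slc4a7, a bicarbonate transporter gene, at chr14:14632307-14633879 (1573 bp, between genes). Its signal was 41.8, 46.6 and 47.3 in the 3 T30 libraries and between 16.3 and 25.8, median 19.5, in the 5 ZT6 controls. At T27 it was 38.3, 50.5 and 50.7, against 21.9, 25.4 and 28.6 at ZT3. Every deprived library was above every control of its time of day at both times. The log2 change was 1.04 ± 0.17 (SE; adjusted p = 4.17e-05, limma) at T30 and 0.86 ± 0.18 (adjusted p = 0.0082) at T27, and at T36 it was 0.51 ± 0.17 (adjusted p = 0.139). With 1 library left out, the T30 call held in 8 of 8 fits and the T27 call in 3 of 6, being lost without the ZT3 animal T3N3 or the T27 animals T27S3 or T27S5. Slc4a7 mRNA did not pass the test at T30 (log2 change 0.13, adjusted p = 0.103).

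Among the other large rises at T30, a peak on chromosome 18, whose position relative to genes is not annotated here, rose (log2 change 1.00 ± 0.22, adjusted p = 0.0035). The peak within Veph1 had 23.6, 25.7 and 26.1 at T30 against 7.13 to 20.5 in the ZT6 controls (log2 change 0.80 ± 0.19, adjusted p = 0.0072). The others were a peak 31.3 kb from Gm34819 (0.71), a peak 105.8 kb from Iqub (0.70), a peak 21.4 kb from Hdac2, a histone deacetylase gene (0.70), a peak within Gm40767 (0.69) and the Gm40832 start (0.66), each with its adjusted p below 0.05. With 1 library left out the Gm40767 call held in all 8 fits, those near Hdac2 and on chromosome 18 in 7, those at Veph1 and Iqub in 5, that near Gm34819 in 4 and Gm40832 in 2. In mRNA, Iqub was higher at T30 (log2 change 0.36, adjusted p = 0.0016) and Hdac2 had a change of 0.00 ± 0.07 (adjusted p = 0.997).

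Ciart, which encodes a repressor of the circadian clock, lost accessibility at its start after 6 h awake. Its peak, chr3:95881808-95883363 (1556 bp), measured 35.4, 37.1 and 40.2 at T30 and 46.9, 48.9, 49.5, 57.2 and 59.8 at ZT6. The deprived libraries were all below the controls, and the log2 change was -0.47 ± 0.13 (adjusted p = 0.0305, limma). Its mRNA fell as well, by 0.65 on the log2 scale at T30 (adjusted p = 0.0056) and by 0.84 at T36 (adjusted p = 0.0013), when the peak's own change was -0.21 ± 0.13 (adjusted p = 0.538). At T27 the mRNA change was 0.01 ± 0.20 (adjusted p = 0.987). The T30 call of the peak was lost with the replicate block and in 4 of 8 fits with 1 library left out (J76N2, T6N4, T30S1 or T30S4), where its change stayed between -0.52 and -0.41. In undisturbed mice the peak was lowest at ZT0 (37.8 ± 4.68, SD, n = 8) and highest at ZT12 (56.1 ± 5.51, SD, n = 5), spanning 0.57 on the log2 scale (limma F-test, adjusted p = 0.00086; called in 25 of 25 fits with 1 library left out), and the mRNA was lowest and highest at the same times (range 1.95, adjusted p = 3.22e-14).

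Klhdc9, a kelch-domain gene, fell in both assays. Its peak, chr1:171360162-171361990 (1829 bp), had 33.3, 33.7 and 40.0 at T30, below the 46.8 to 57.1 of the 5 ZT6 controls (log2 change -0.53 ± 0.13, adjusted p = 0.0087; the call was lost without T30S1 or T30S4). The mRNA fell by 1.03 on the log2 scale at T30 (adjusted p = 9.82e-11) and by 0.72 at T27 (adjusted p = 5.03e-06). In controls the peak's group means spanned 0.52 on the log2 scale, highest at ZT6 and lowest at ZT18 (limma F-test, adjusted p = 0.0133; not called with cyclic loess or without T18N2). The mRNA was highest and lowest at the same times (range 0.70, adjusted p = 3.87e-10).

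**Figure D2:**
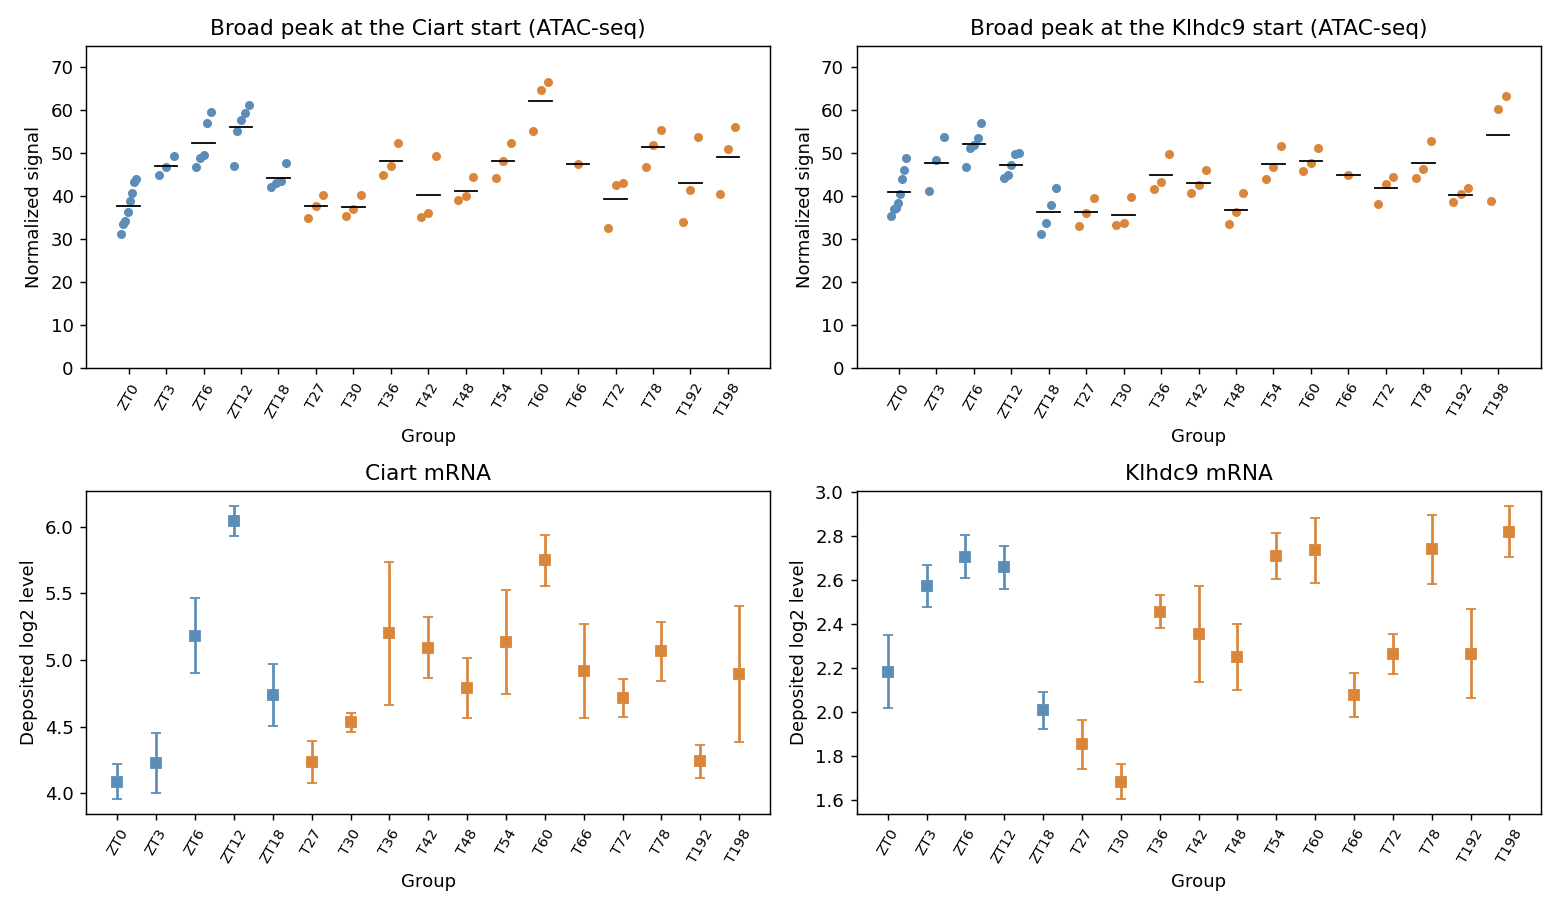
Top, normalized ATAC-seq signal of the broad peaks at the Ciart and Klhdc9 starts by group, 1 point per library with the mean as a line. Bottom, the deposited log2 mRNA level of the same genes (mean ± SD); blue marks undisturbed controls and orange sleep-deprived mice, and for both peaks the 3 T30 libraries lie below all 5 ZT6 libraries.

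Across the 59 animals, level at the peak and mRNA moved together for these 2 genes. Of the 8 genes measured in RNA whose start lies in a broad peak called at T30, Pearson's r was 0.76 for Klhdc9 and 0.72 for Ciart (Spearman's rho 0.77 and 0.72; permutation p = 1e-05 for each, the smallest that 100000 permutations can give; adjusted over the 8 relations 4e-05). Within batch 1 (40 animals) and batch 2 (19 animals) r was 0.75 and 0.73 for Klhdc9 and 0.71 and 0.76 for Ciart. Without the 2 animals farthest from the median accessibility r was 0.75 and 0.69. For Zfp467 r was 0.37 and rho 0.37 (adjusted permutation p = 0.0096 and 0.0117), within batches 0.48 and 0.20. For Nufip2 both were negative, r = -0.28 and rho = -0.29 (adjusted permutation p = 0.0643 and 0.0489). Acsl4, Tpgs1, Grb14 and Alyref2 had r between -0.11 and 0.22, with adjusted permutation p of at least 0.145. These animals include those in which the peaks were called, and they differ in time of day and treatment. The correlations and their p-values therefore hold the differences between groups, and a link between animals of the same group was not tested.

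The other falling starts did not share a direction in mRNA. At T30 the peak at Alyref2, an mRNA export factor gene, had a log2 change of -0.67 (adjusted p = 0.0109) and its mRNA -0.14 (adjusted p = 0.371). Nufip2 accessibility fell by 0.55 (adjusted p = 0.0175) while its mRNA rose by 0.27 (adjusted p = 0.0232). Acsl4, which activates long-chain fatty acids, fell by 0.49 in accessibility (adjusted p = 0.0471), with an mRNA change of -0.01. Chosen after their values were seen, to complete the 9 starts, Zfp467 fell in both assays (-0.46 and -0.31, adjusted p = 0.0246 and 0.0014), Tpgs1 fell in accessibility (-0.48, adjusted p = 0.0251) with an mRNA change of 0.12, and Grb14, an adaptor of the insulin receptor, rose in accessibility (0.46, adjusted p = 0.0455) with an mRNA change of 0.17 (adjusted p = 0.0655). With 1 library left out the Grb14 call held in 2 of 8 fits, Acsl4 in 3, Zfp467 in 4, Alyref2 and Tpgs1 in 5 and Nufip2 in 6. Away from starts the named fallers were peaks near Sema7a (-0.62), within Gm30013 (-0.61), 110.9 kb from LOC115486416 (-0.60) and within Cabin1 (-0.49). Sema7a mRNA was higher at T30 (log2 change 0.25, adjusted p = 0.0036, limma), and Cabin1 mRNA changed by -0.05 (adjusted p = 0.575, limma). The Gm30013 peak had 17.5, 18.0 and 18.3 at T30, and its ZT6 controls 25.7 to 28.6, and its call held in all 8 fits with 1 library left out, against 4 for those at Sema7a and Cabin1 and 2 for that near LOC115486416. At T36 the called peak, chr13:6665273-6667601, lay near Pfkp, a glycolytic enzyme gene. It had 19.7, 25.3 and 28.1 against 33.4 to 37.3 in the 5 ZT12 controls. The log2 change was -0.54 ± 0.14 (adjusted p = 0.0404, limma), called in 2 of 8 fits with 1 library left out. Pfkp mRNA was higher at T36 (log2 change 0.10, adjusted p = 0.035, limma).

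The T30 calls rested on few animals: leaving out 1 library at a time gave between 7 and 36 broad peaks, 7 without the T30 animal T30S1 or T30S4 and 11 without the ZT6 animal T6N4. Without T6N4, 3 were higher and 8 lower, so most of the 17 rises were called only with that control in the fit. T6N4 had the fewest reads in peaks of all 59 libraries (2.21 M). Without T30S1 or without T30S4, 5 were higher and 2 lower. Ciart is not among the 8 largest falls and was named through the clock list.

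**Figure D3:**
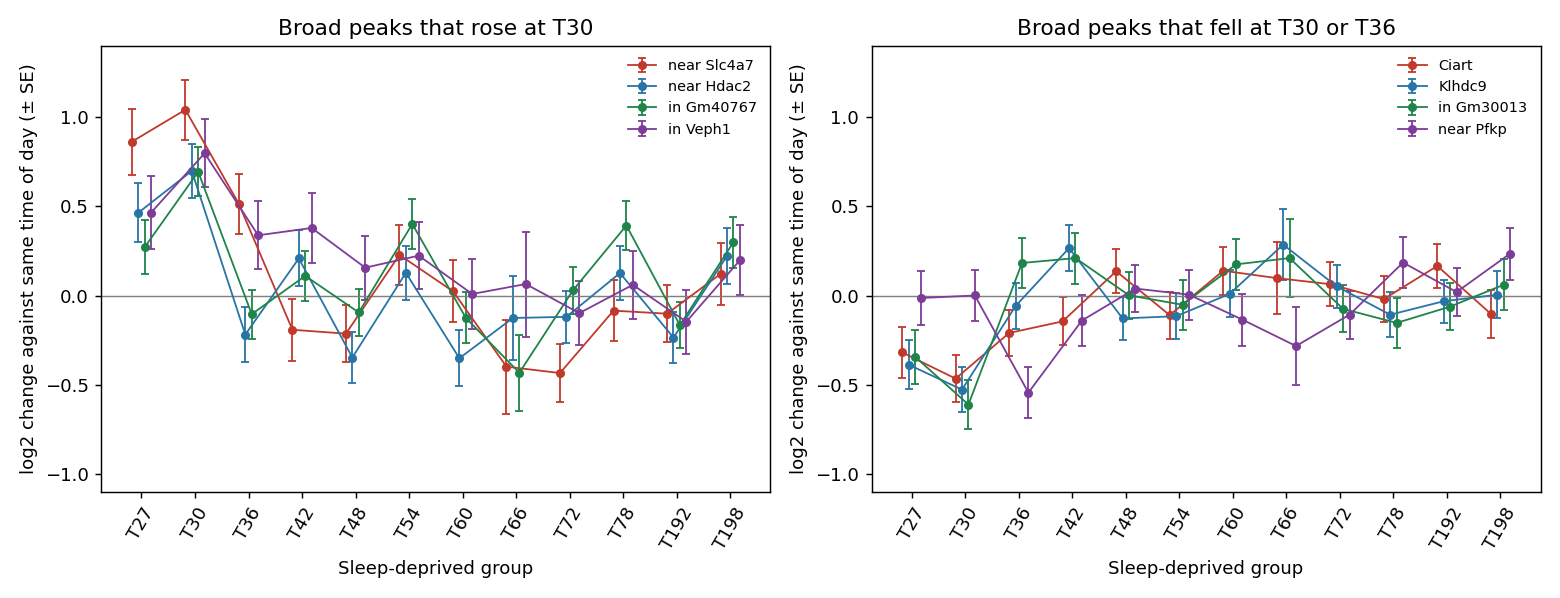
Fitted log2 change (± SE, limma) of selected broad peaks in the 12 sleep-deprived groups against controls of the same time of day, rising peaks on the left and falling peaks on the right. The peak near Slc4a7 is at 0.86 at T27, 1.04 at T30 and 0.51 at T36, and the peak near Pfkp is at 0.00 at T30 and -0.54 at T36.

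Broad peaks at immediate-early genes were not called at T27, T30 or T36, while at T30 the mRNA of 3 of the 4 genes rose. The Fos peak changed by 0.00 ± 0.15 on the log2 scale at T30 (adjusted p = 0.995), while Fos mRNA rose by 2.67 (adjusted p = 0.00011). The Bdnf peak, at a neurotrophin gene, changed by -0.03 ± 0.13 and its mRNA rose by 1.15 (adjusted p = 1.32e-10). The Homer1 peak, at a postsynaptic scaffold gene, changed by 0.13 ± 0.12 and its mRNA rose by 1.15 (adjusted p = 5.36e-08). The Jun peak changed by -0.03 ± 0.12, with an mRNA change of -0.08 (adjusted p = 0.612). Jun mRNA fell by 0.45 at T27 (adjusted p = 0.0033) and rose by 0.47 at T36 (adjusted p = 0.0011), where the peak's changes were -0.30 ± 0.13 (adjusted p = 0.326) and -0.22 ± 0.12 (adjusted p = 0.448). Of the 6 clock genes only Ciart's peak was called at T30; Nfil3, a repressor that acts on clock output genes, had a peak change of -0.33 ± 0.16 (adjusted p = 0.29) and an mRNA rise of 0.93 (adjusted p = 5.36e-08).

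Over all 1673 measured genes with a start in a broad peak, 580 were called in RNA at T30 (34.7%, 281 higher and 299 lower; background 31.6%). At T27 290 were called (17.3%, background 15.6%), at T36 222 (13.3%, background 11.9%) and by time of day 750 (44.8%, background 40.7%). Of the 580, the broad peak itself was called for 4 (Ciart, Klhdc9, Nufip2 and Zfp467), beside 0.542% of all broad peaks with a start, so this count is no result about the genes called in RNA.

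The share of all signal lying in broad peaks was lower in deprived libraries than in controls at T27 and T30, a description with no test. Over the 59 libraries it ran from 8.76% to 10.3%, median 9.52%. The T27 libraries had 9.03% to 9.24% and the ZT3 controls 9.51% to 10.1%, and the T30 libraries had 9.02% to 9.42% and the ZT6 controls 9.48% to 10.1%; neither pair overlapped, and within batch 1 the ZT6 controls had 9.48% to 9.84%. At T36 the libraries overlapped their controls (9.24% to 9.70% against 9.48% to 10.0%). Among controls the share was lowest at ZT0 (median 9.23%, against 10.1% at ZT3 and 9.89% at ZT12). The median log2 change of broad peaks was -0.13 at T27 and -0.08 at T30, against -0.01 and -0.02 over all peaks. Split by gene start, the T27 median was -0.15 with a start and -0.07 without in broad peaks. In narrower peaks it was -0.14 and 0.01. In the top 10% by signal the T27 medians were -0.16 and -0.08 for broad peaks and -0.16 and -0.05 for narrower ones. The share of signal in narrower peaks of the top 10% by signal moved with that of broad peaks at T27. It was 28.1% to 28.3% at T27 and 28.9% to 30.8% at ZT3, though at T30 and ZT6 the libraries overlapped. The part of these narrower peaks in the result was not tested. With cyclic loess, which removes shifts tied to signal level by its construction, the median change of broad peaks was -0.0004 at T27 and -0.03 at T30.

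**Figure D4:**
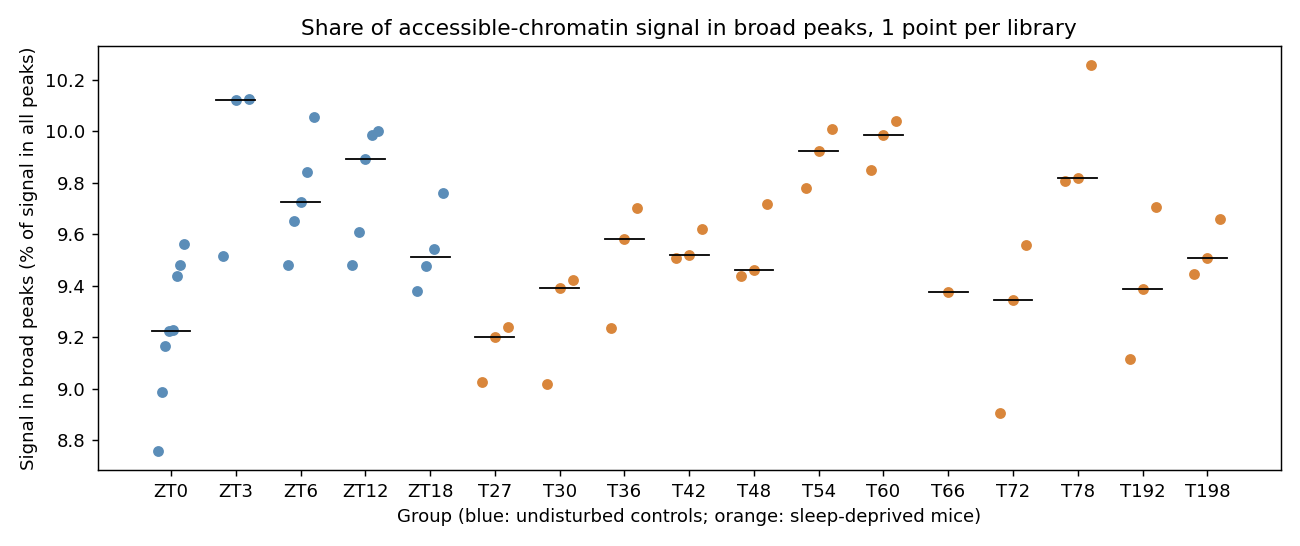
Percent of the normalized ATAC-seq signal in all peaks that falls in broad peaks, 1 point per library with the group median as a line, for controls (blue) and sleep-deprived mice (orange). The T27 and T30 libraries lie below the ZT3 and ZT6 controls.

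By time of day in undisturbed mice, 29 broad peaks were called (1.04%; limma F-test, background 1.39%). Of these 16 were highest at ZT12 and 20 were lowest at ZT0, where over all called peaks 40.5% were highest at ZT12 and 23.3% lowest at ZT0. A gene start lay in 16 of the 29, a lower limit because the table of starts is not complete. Of those 16, 14 were lowest at ZT0, the group with the lowest share of signal in broad peaks. The part of that share in these calls was not tested. With cyclic loess 17 broad peaks were called, in batch 1 alone 16, and among peaks with a mean signal of 10 or more 43. Without the ZT12 animal T12N1 or T12N4 12 were called, and without the ZT6 animal J76N1 44. The heat-shock pair Hspd1 and Hspe1, mitochondrial chaperonin genes that share a start region, had 42.6 ± 5.71 at ZT0 (SD, n = 8) and 54.2 ± 4.72 at ZT3 (SD, n = 3; limma F-test, adjusted p = 0.0307; not called with cyclic loess, in batch 1 alone or with the replicate block). Dnajc21, a co-chaperone gene, had 19.4 ± 3.07 at ZT0 (n = 8) and 28.9 ± 5.25 at ZT12 (n = 5; limma F-test, adjusted p = 0.0177; not called with cyclic loess or without T12N4, T12N6 or T0N5). Of 17 genes starting in these peaks and measured in RNA, 7 were called by time of day in RNA, a share near the background of 40.7% of all genes. For Ciart and Klhdc9 the peak and the mRNA were highest in the same group and lowest in the same group. For Dnajc21, Hspd1, Hspe1, Fmr1 and Mplkip, the others of the 7, neither the highest nor the lowest group was shared. The Dnajc21 peak was highest at ZT12 and lowest at ZT0, where its mRNA was highest.

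The widest ranges belonged mainly to peaks away from known starts. The peak within Angpt1, a vascular growth factor gene, had 10.2 ± 2.80 at ZT0 (SD, n = 8) and 18.8 ± 2.53 at ZT12 (SD, n = 5), spanning 0.87 on the log2 scale (adjusted p = 0.0068, limma F-test). Next were Gm40832 (0.71), Gm32793 (0.66), the peak near Gm34819 (0.64), Tbc1d2 (0.61), the peak near Slc4a7 (0.61), Ciart (0.57) and the peak near Gm11820 (0.56). The last of these lay 1072 kb from the Gm11820 start, the nearest one known. The calls within Angpt1 and Gm32793 were lost in batch 1 alone, and that of Gm40832 with the replicate block. With 1 library left out, Gm40832 was called in 9 of 25 fits, Tbc1d2 in 22 (lost without T12N1, T12N2 or T12N4), Gm32793 in 23 (lost without T12N1 or T12N2), the peak near Gm34819 in 23 (lost without T6N3 or T6N4), Angpt1 in 24 (lost without T12N6), and those near Slc4a7 and Gm11820 and at Ciart in 25. Between neighbouring times, 17 broad peaks differed between ZT6 and ZT0 (background 0.64%), 12 higher and 5 lower at ZT6 (background 0.118% and 0.522%); with cyclic loess 7 were higher and 12 lower, and without the ZT6 animal T6N4 none was called. From ZT6 to ZT12, 5 rose (background 0.504%, 0.437% higher and 0.0673% lower). The count was 0 without T6N3, T6N4, T12N1 or T12N6, and 19 without J76N1 or T6N2. From ZT12 to ZT18 none was called by limma (background 0.0405%) or by edgeR. There, 196 broad peaks had an unadjusted p below 0.05 with limma (7.03%, against 8.42% of all peaks).

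The comparison of T30 with ZT6 and that of ZT6 with ZT0 share the ZT6 controls, which alone pushes their changes to opposite signs, so the values are given side by side with nothing read from them. The peak near Slc4a7 was lower at ZT6 than at ZT0 (-0.61) and higher at T30 than at ZT6 (1.04), those near Gm34819 and Gm11820 did likewise (-0.64 and 0.71; -0.56 and 0.57), and Ciart was higher at ZT6 than at ZT0 (0.47) and lower at T30 than at ZT6 (-0.47).

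The effect of deprivation differed between T30 and T36 in 6 broad peaks (background 0.352%, 0.0734% with a higher and 0.278% with a lower effect at T36). It was lower at T36 for the peak on chromosome 18 (-1.42), the peak near Hdac2 (-0.92), the peak within Gm40767 (-0.80) and Grb14 (-0.74), and higher for the peaks within Fat3 (1.05), a cadherin family gene, and Gm30013 (0.79). The count was 1 without T6N4, T30S1 or T36S2 and 13 without T6N2. With 1 library left out, the call on chromosome 18 held in 14 of 16 fits and those near Hdac2 and within Fat3 in 10. Gm40767 held in 7, Gm30013 in 6 and Grb14 in 4. For the difference between T27 and T30 and that between T36 and T42, limma and edgeR called no broad peak. At an unadjusted p below 0.05 limma had 71 (2.55%, against 4.34% of all peaks) and 129 (4.63%, against 7.41%).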

How the data were processed

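Deposited ATAC-seq values are a signal per peak that the authors scaled for depth, as the values show, over 1 peak set for all libraries; per the labels' protocols, PCR duplicates and reads of mitochondrial origin had been taken out. Deposited RNA values are on a log2 scale; they look already adjusted for batch, which is read from the values only. The submitters' processing notes name kallisto 0.43.0, sleuth 0.29.0, bedtools 2.26.0, MACS2 2.1.1 and HTSeq 0.6.1 and builds GRCm38 and mm10, without their order. How peaks of single libraries were joined, which sets their width, is not stated in the labels or file headers.

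Signal was taken as log2(value + 0.5) and fitted over all 130727 peaks and 59 libraries (1 repeat library left out) with limma 3.58.1 in R 4.3.3: group means plus batch, with trend, leaving 41 residual degrees of freedom (RNA: 44, from 62 animals), two-sided tests, Benjamini-Hochberg adjustment, calls below 0.05. T66 has 1 ATAC library, assumed to vary like the others. Every signal value was a whole number of reads (tolerance 0.02) times a library step, giving 2.21 to 11.9 M reads in peaks and a median of 117 reads per broad peak; edgeR 4.0.16 ran on these reads as an alternative. RNA symbols matched RefSeq for 13614 of 13842 genes. Animals labelled T36 during deprivation were placed after it, per the protocol.

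Named peaks were the 8 largest rises and falls at T27, T30 and T36 among called peaks whose groups did not overlap, 3 each way elsewhere, the 8 widest ranges by time of day, the 8 widest, the 5 highest and lowest per kb, 3 on either side of the width limit, and called peaks at starts of immediate-early or clock genes. Members and lists were chosen with earlier results of these data known. Only the limma fit of the T30 comparison was tested on simulated data. That simulation held no batch effect, and the other steps were not tested in this way.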

Additional observations from a re-analysis of the deposited data

Results flagged for a closer look

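The effect of deprivation on 6 broad peaks differed between T36 and T30 by a test of the difference itself (limma, adjusted p below 0.05). With 1 library left out, these calls held in 4 to 14 of 16 fits. The difference, T36 effect minus T30 effect in log2 units, was -1.42 for the peak on chromosome 18, -0.92 near Hdac2, -0.80 within Gm40767, -0.74 at Grb14, 0.79 within Gm30013 and 1.05 within Fat3. Among 80 groups of 4 to 10 libraries examined for a library far from the others, 2 held one, where chance gives about 1 in 20. At the Grb14 peak the ZT0 animal T0N9 stood at 45.7, and at the Alyref2 peak the ZT6 animal T6N3 stood at 28.3.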

How the results depend on the processing

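The T30 count of 28 broad peaks lay between 21 and 34 under the other pseudocounts, scalings, filter, batch and test settings, and changed with the width limit: 111 at 1200 bp and 3 at 2000 bp. At T27 the count of 1 became 17 at 1200 bp, 0 at 2000 bp, 4 with cyclic loess and 2 with pseudocount 5, batch 1 only or edgeR. At T36 the count of 1 became 21 at 1200 bp, 4 with cyclic loess, 3 with no batch term, 3 with the replicate block, 2 with pseudocount 5 and 0 with edgeR. The 29 peaks by time of day became 110 at 1200 bp, 4 at 2000 bp, 17 with cyclic loess and 16 in batch 1. They became 43 with a mean signal of 10 or more, 38 with no batch term, 22 with the replicate block and 20 with edgeR. The 6 differences between T36 and T30 became 29 at 1200 bp, 1 at 2000 bp, 2 with edgeR and 4 with the replicate block. They became 9 with a mean signal of 10 or more or with pseudocount 5, and 8 with cyclic loess. The 17 between ZT6 and ZT0 became 52 at 1200 bp, 2 at 2000 bp, 39 with a mean signal of 10 or more, 8 with edgeR and 3 with the replicate block, and the 5 between ZT12 and ZT6 became 31, 0, 10 with pseudocount 5, 3 with edgeR and 2 with the replicate block. Between ZT18 and ZT12, 0 became 3 at 1200 bp and 1 with the replicate block. The median share of signal, 9.52%, became 23.7% at 1200 bp and 1.44% at 2000 bp. Apart from the width limits, which change the members, the cause was not tested.

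Leaving out 1 library at a time gave 0 to 3 at T27, 7 to 36 at T30, 0 to 4 at T36, 0 to 3 at T198, 12 to 44 by time of day, 1 to 13 for T36 against T30, 0 to 35 for ZT6 against ZT0 and 0 to 19 for ZT12 against ZT6, and 0 for the other comparisons. Of 885 recomputed values of 39 results for named peaks, 701 stayed called, 184 lost the call and 0 changed sign. The ranges by time of day among these results cannot change sign, because a range is never below 0. Same-numbered animals share only a number: their median residual correlation was -0.00245 over 315 pairs, and the replicate block gave 26 broad peaks at T30. With 3 animals in most deprived groups, small changes are not detectable.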
